A study of Mus musculus with 15 samples.

Results

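Integrins are the receptors by which cells hold on to the matrix around them, and laminins are the cross-shaped glycoproteins of basement membranes that several of them bind. Here the 36 genes of the deposited matrix that code for them by name, 18 integrin alpha subunits, 8 integrin beta subunits and 10 laminin chains, were taken out of 55359 genes and compared across 5 groups of 3 mouse samples. An integrin is a pair of 1 alpha and 1 beta subunit, and the alpha subunit largely sets what is bound. Itga3, Itga6 and Itga7 serve laminin receptors, Itga1, Itga2, Itga10 and Itga11 serve collagen receptors, and Itga5, Itgav, Itga8 and Itga2b serve receptors of the Arg-Gly-Asp motif of fibronectin, vitronectin or fibrinogen. A laminin is a trimer of an alpha, a beta and a gamma chain. In the lung, integrins tie airway and alveolar epithelium to its basement membrane, and integrins of the Itgb2 and Itgb7 groups guide leukocytes.

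RNA was sequenced after poly-A selection from 2 lung tumor lines, their tumors in mice and normal lung. 46LCNEC_cell are cells of a large cell neuroendocrine carcinoma line, grown as an adherent monolayer in dishes A, B and C. They came from a lung tumor that arose after an adenovirus with a CMV-driven Cre recombinase had acted on a wide range of lung epithelial cells. 57SCLC_cell are cells of a small cell carcinoma line, grown as floating aggregates in flasks A, B and C, from a tumor after an adenovirus whose Cre is driven by the keratin K5 promoter of basal cells. Both tumors arose in QKO mice, which carry floxed tumor suppressors, among them Rb1 and Trp53, together with null Rbl1. 46LCNEC_allo (tumors 312, 319 and 321) and 57SCLC_allo (tumors 275, 316 and 317) are tumors of the same lines, injected with Matrigel under the skin of immunocompetent QKO mice, and Lung (CT3, CT4 and CT5) is normal lung of littermates of those mice. The mice that received the CMV-driven Cre were adults. Each tumor type is 1 line, so what belongs to the line, the tumor type, the Cre driver and the way of growth cannot be told apart, and p-values measure the spread among dishes, flasks or tumors of 1 line. Matrigel is itself a laminin-rich basement membrane extract. In allografts and lung, fewer cells of a type and less RNA per cell cannot be told apart.

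The values are normalized counts: reads per gene divided by the size factor of the sample. From 9480244 (tumor 275) to 44876572 (flask C of 57SCLC_cell) reads lay in genes of a sample (median 26502525). A value of 3 reads or fewer was treated as not detected, a floor that covers counting error only. Replicates of a group differed by more than counting noise, and flask C stood apart from flasks A and B of 57SCLC_cell (a chi-square of 144 and 127 for each degree of freedom, against 2.80 between A and B). Of the 6 neuroendocrine markers examined, 6 were above the floor in every 57SCLC sample, but 2 of 6 in all of 46LCNEC_cell, where Ncam1 alone carried the sum with a mean of 29936. The 5 alveolar markers summed to between 216600 and 290173 in Lung, and to at most 2516 elsewhere. Counts over the whole gene do not check the deleted exons: Rb1 averaged 85.7 in 46LCNEC_cell, 414 in 57SCLC_cell and 291 in Lung.

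Of the 36 genes, 35 were above the floor in every Lung sample, 33 in every sample of either allograft group, 32 in 46LCNEC_cell and 29 in 57SCLC_cell. At or under the floor in all flasks of 57SCLC_cell were Itga1, Itga8, Itgb2, Itgb8, Lama1 and Itgam. Itgam, an alpha subunit of myeloid cells, was listed at 0 in all 15 samples. In the GENCODE release used here for coordinates, 67.4% of its exonic bases lie within exons of Gm49368 on the same strand, a gene with a mean of 31.0 in Lung, so its 0 is not read as absence. The heat map of the 36 genes shows these values beside the low levels of other members in 57SCLC_cell.

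**Figure D1:**
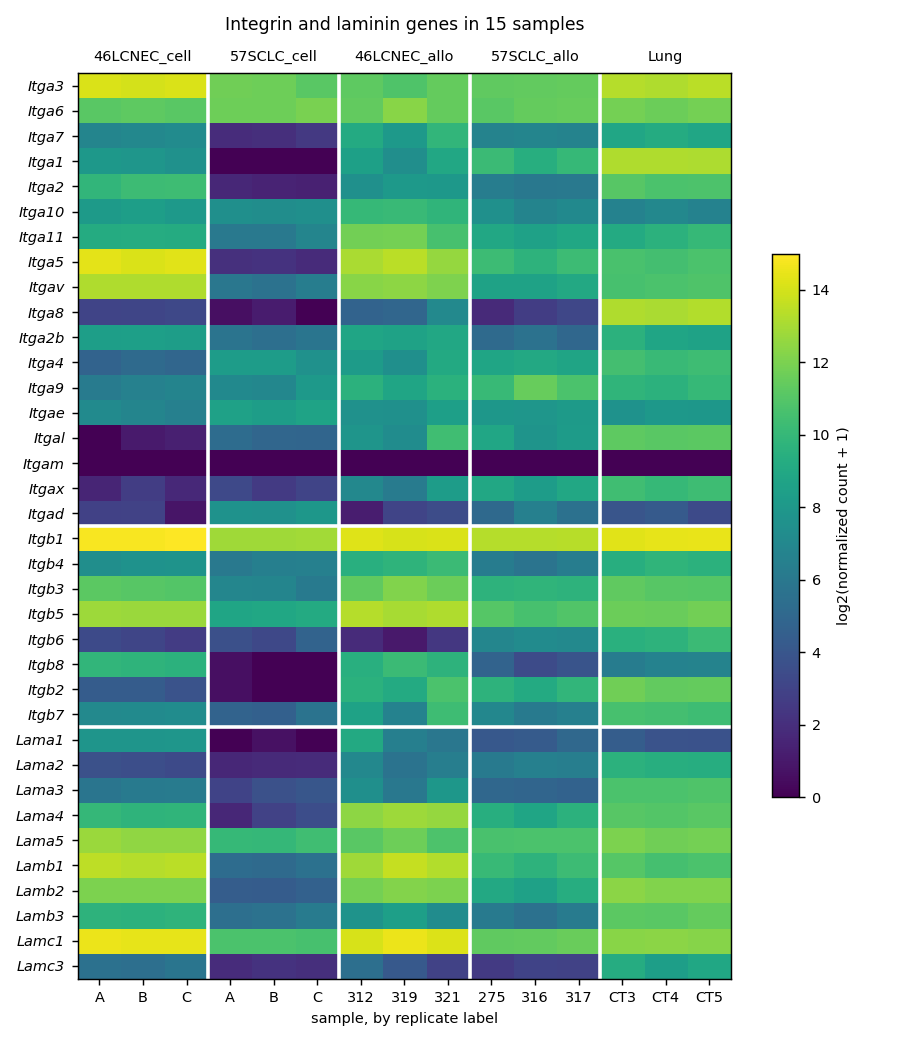
Heat map of log2(normalized count + 1) for 36 genes (rows: integrin alpha, integrin beta and laminin genes, split by white lines) in 15 samples (columns, labelled by replicate within their group). 57SCLC_cell is dark in many rows where 46LCNEC_cell is bright, such as Itga5 at 2.61 to 3.62 against 18213 to 20915 normalized counts, and Itgam is at 0 in every column.

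Per kilobase of exon, the 3 families were low in 57SCLC_cell. The summed level of the laminin chains was 4431 ± 229 normalized counts per kb in 46LCNEC_cell and 261 ± 10.3 in 57SCLC_cell (mean ± SD, n = 3), and it stood at 2400 ± 149 in Lung. For the alpha subunits the sums were 8114 ± 374, 1032 ± 51.3 and 5148 ± 291 in the same order. The beta subunits summed to 6441 ± 310, 1346 ± 42.8 and 6058 ± 152. The 3 samples of 57SCLC_cell were below every sample of the other groups in all 3 families.

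Itgb1, the shared partner of most matrix-binding alpha subunits, led the beta subunits per kb in every group, from 54.6% of their summed level in 46LCNEC_allo to 91.8% in 57SCLC_cell. Among alpha subunits, Itga5 led in 46LCNEC_cell (45.9%) and 46LCNEC_allo (42.2%), and Itga3 led in 57SCLC_cell (49.4%), 57SCLC_allo (28.9%) and Lung (33.8%). Lamc1, the gamma chain found in most laminins, led the laminin chains everywhere but in Lung, where Lamb2 took 33.1%. In 57SCLC_cell, Lamc1 (56.4%) and Lama5 (37.5%) made up nearly the whole laminin level, and Lamb3 came next with 2.60%. In 46LCNEC_cell the beta chains Lamb1 (22.9%) and Lamb2 (15.6%) followed Lamc1 (45.2%). As the bar chart of family make-up shows, 90% of the alpha level took 3 genes in 46LCNEC_cell and 5 in 57SCLC_cell, but 7 in 46LCNEC_allo and 9 in both 57SCLC_allo and Lung. For laminin chains it took 2 genes in 57SCLC_cell, 4 in 46LCNEC_cell and in both allograft groups, and 6 in Lung.

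**Figure D2:**
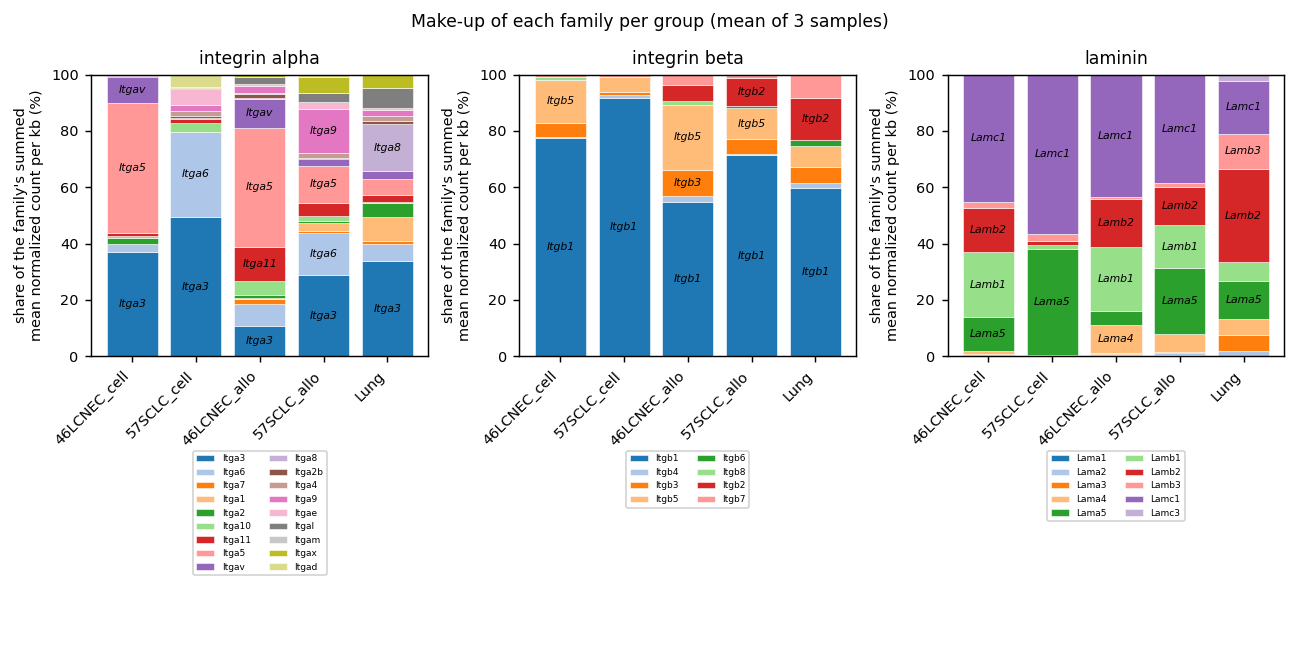
Share of each gene in the summed mean normalized count per kb of its family (y axis, percent) for 5 groups (bars, mean of 3 samples), in panels for integrin alpha, integrin beta and laminin genes. Itga5 takes 45.9% of the alpha level in 46LCNEC_cell, Itgb1 takes 91.8% of the beta level in 57SCLC_cell, and Lamc1 with Lama5 fill most of the laminin bar of 57SCLC_cell.

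The comparison of 57SCLC_cell with 46LCNEC_cell asked how the 2 lines differ in culture. Most tested integrin and laminin genes were lower in the floating 57SCLC cells. Of 31 genes tested, 24 fell and 4 rose, against 46.1% of all 16920 genes tested called in either direction with 22.2% called lower and 23.9% higher. All 7 tested beta subunits and all 9 tested laminin chains were among the lower ones, while of 15 alpha subunits 8 were lower and 4 higher. The median log2 fold change was -3.59 for the members and 0.0003 over all genes. With the 5 members at the floor in 1 group set at their lower bound, the members' median was -3.28, and in the other comparisons of 2 groups such bounds left the medians of the members as given below. Groups were compared by limma on log2(normalized count + 1), and calls needed a Benjamini-Hochberg adjusted p no higher than 0.01 together with a change by 1 or more on the log2 scale. All log2 fold changes below are on this scale, which understates the change of low genes.

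Upstream sequence is shown for 3 genes that were much lower in 57SCLC_cell (Itga5, Itgb5 and Lamb2) and for 2 that were lower there by less (Itga3 and Lama5), so that their promoters can be set side by side. Itga3, Lama5 and Itgb5 remained among the leading genes of 57SCLC_cell per kb. RefSeq windows on GRCm38.p6 were found for 23 of the 36 genes. The runs are written 5′ to 3′ on the gene's strand, begin 250 bases before the RefSeq start and stop where the first transcript annotated for the gene begins. Capitals mark GGGCGG or its reverse complement, the GC box bound by Sp1. The runs are Itga5 at chr15:103366844-103367041 (minus strand, 198 bases), Itgb5 at chr16:33829415-33829617 (plus strand, 203 bases), Lamb2 at chr9:108479612-108479735 (plus strand, 124 bases), Itga3 at chr11:95076857-95076964 (minus strand, 108 bases) and Lama5 at chr2:180225920-180226109 (minus strand, 190 bases).
Itga5: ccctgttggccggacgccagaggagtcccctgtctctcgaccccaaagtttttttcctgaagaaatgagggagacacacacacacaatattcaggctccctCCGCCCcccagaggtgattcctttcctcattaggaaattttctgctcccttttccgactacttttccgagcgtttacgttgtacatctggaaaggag
Itgb5: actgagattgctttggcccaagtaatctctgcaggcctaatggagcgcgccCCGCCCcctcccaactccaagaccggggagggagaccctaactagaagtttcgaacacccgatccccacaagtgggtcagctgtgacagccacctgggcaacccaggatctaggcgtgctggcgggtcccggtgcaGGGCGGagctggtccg
Lamb2: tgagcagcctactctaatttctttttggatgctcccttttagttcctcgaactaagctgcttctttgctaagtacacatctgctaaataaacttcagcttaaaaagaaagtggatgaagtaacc
Itga3: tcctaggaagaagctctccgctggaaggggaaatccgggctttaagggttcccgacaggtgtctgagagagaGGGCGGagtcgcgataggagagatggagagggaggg
Lama5: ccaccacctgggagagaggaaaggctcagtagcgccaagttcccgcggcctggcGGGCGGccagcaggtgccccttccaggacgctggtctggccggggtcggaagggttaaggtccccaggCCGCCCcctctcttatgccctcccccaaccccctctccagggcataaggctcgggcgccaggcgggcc

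Searched on both strands in the 250 bases before the start, the GC box was present in 9 of the 26 windows of members (34.6%) and in 32.7% of all 32851 windows. TGANTCA, the AP-1 motif, was in 1 member window (Itgax) and in 6.75% of all. GGAATG, the TEAD motif, was in 3 (Itga10, Itgb1 and Lamb3) and in 12.6% of all, and TGTGGT, the RUNX motif, was in 2 (Itga3 and Itga4) and in 14% of all. In the runs printed, the GC box stood upstream of Itga5, Itgb5, Itga3 and Lama5, and Lamb2 held none. All 5 genes were called lower in 57SCLC_cell. These matches describe letters in a window only.

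Among the receptors of the Arg-Gly-Asp motif, Itga5 (chr15:103252713-103275270 on GRCm39, minus strand), whose product pairs with Itgb1 as the main fibronectin receptor, differed most. It had 20915, 18213 and 20290 normalized counts in dishes A, B and C of 46LCNEC_cell, and 3.27, 3.62 and 2.61 in flasks A, B and C of 57SCLC_cell. The dishes and flasks were 6257-fold apart in their means (log2 fold change -12.22 ± 0.13 SE, adjusted p = 1.92e-09, limma).
Itgav (chr2:83554403-83637260, plus strand), the common alpha subunit of vitronectin receptors and of receptors that free TGF-beta, had 9283, 9382 and 9380 in 46LCNEC_cell and between 48.2 and 79.7 in 57SCLC_cell. This was a log2 fold change of -7.23 ± 0.17, and its level in the flasks was low but above the floor.
Its beta partners fell with it. Itgb5 was at 7086, 6704 and 6708 in the dishes and 445, 486 and 570 in the flasks (-3.78 ± 0.10). Itgb3 was at 2377, 2190 and 1981 against 117, 110 and 72.4 (-4.46 ± 0.19). Itgb8, a partner for latent TGF-beta, was at 921, 865 and 773 against 0.545, 0 and 0, so it was at least 472-fold higher in 46LCNEC_cell. Itgb6, an epithelial partner, was at most 26.1 in either line and was not tested. Itga2b, known from platelets, was at 329, 347 and 322 in 46LCNEC_cell and 53.5, 44.0 and 55.8 in 57SCLC_cell (-2.69 ± 0.15). Of the 4 platelet markers examined, Pf4 and Gp9 were at the floor in 46LCNEC_cell, and Pf4 and Ppbp in 57SCLC_cell. The 4 markers summed to between 66.2 and 84.4 in the dishes and between 253 and 289 in the flasks. Their part in the difference was not tested.

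The laminin receptor subunits did not move alike. Itga3, the alpha subunit of the main epithelial laminin receptor, had 18032, 16591 and 18055 in 46LCNEC_cell and 3421, 3196 and 2294 in 57SCLC_cell. The difference was 5.91-fold (log2 fold change -2.58 ± 0.15), and Itga3 was still the leading alpha subunit of the flasks. Itga6, which pairs with Itgb1 or Itgb4, had 2244, 2430 and 2270 in the dishes and 3316, 3316 and 3995 in the flasks. The flasks were above the dishes, but at 0.61 ± 0.09 (adjusted p = 0.000431, limma) the difference was under the fold threshold. Itga7, a laminin receptor subunit best known in muscle, was at 113, 126 and 151 against 2.73, 3.02 and 4.69 (-4.88 ± 0.25). Itgb1 itself was at 28553, 28556 and 32184 in 46LCNEC_cell and 7362, 7191 and 7574 in 57SCLC_cell, which is 4.04-fold (-2.01 ± 0.08). Itgb4, the hemidesmosome subunit, was low in both lines, at 171 to 205 against 64.9 to 92.2 (-1.23 ± 0.18). Of its exonic bases 14.9% overlap exons of Galk1 on the other strand, and Galk1 averaged 2084 in 46LCNEC_cell and 112 in 57SCLC_cell. The strand setting of the counting is not given in the sources used here, and the part of this overlap in the difference was not tested.

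Among collagen receptors, Itga1 had 251, 231 and 192 in 46LCNEC_cell and 0 in each flask of 57SCLC_cell, so it was at least 124-fold higher in the dishes. Itga2, a collagen receptor subunit of epithelium and platelets, was at 923, 1214 and 1275 against 2.18, 1.81 and 1.56 (-8.63 ± 0.20). Itga11, known from fibroblasts, was at 581 to 610 against 65.7 to 114 (-2.90 ± 0.22). Itga10, known from cartilage, did not pass the fold threshold, with 277 to 336 against 164 to 177 (-0.79 ± 0.13). Thus the flasks lacked detectable Itga1 and held Itga2 near the floor, while Itga10 and Itga11 remained measurable in every flask.

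The 4 members that rose in 57SCLC_cell are alpha subunits best known from leukocytes. Itga4, which binds VCAM1 and fibronectin, was at 26.3, 35.3 and 29.2 in 46LCNEC_cell and 311, 313 and 191 in 57SCLC_cell (3.10 ± 0.24). Cerkl, which overlaps 20.8% of its exonic bases on the other strand, averaged 5.8 in these flasks. Itgae, the partner of Itgb7 in binding E-cadherin, was at 141, 113 and 89.9 against 380, 322 and 404 (1.70 ± 0.19). Itgad, a partner of Itgb2, was at 6.57, 6.62 and 0.769 against 199, 193 and 241 (5.50 ± 0.54). These flasks lay above every dish for all 3 genes. Itgal, another partner of Itgb2, was at 37.6, 30.2 and 28.7 in the flasks and under the floor in the dishes, so it was at least 9.71-fold higher. The partner Itgb2 was at 0.545, 0 and 0 in the same flasks, and Itgb7 was at 26.2, 23.5 and 50.5, below its 129 to 158 in 46LCNEC_cell (-2.14 ± 0.29). Among the 8 leukocyte markers, Ptprc, Adgre1 and Cd3e were at the floor in 57SCLC_cell. Lyz2 (a mean of 1.51 in the dishes and 15.7 in the flasks, 2.71 ± 0.30) and Laptm5 (2.35 and 12.5, 2.14 ± 0.41) were called higher there, Csf1r was called lower (34.7 and 4.77, -2.65 ± 0.44), and Cd68, which carried most of the sum, averaged 320 and 240 and was not called. The 8 leukocyte markers summed to between 264 and 286 there and between 337 and 385 in 46LCNEC_cell, and their part in the rise of the 4 alpha subunits was not tested. Of the exonic bases of Itgad, 7.32% lie in the pseudogene Gm17831 on the same strand, which averaged 123 in 57SCLC_cell and 53.6 in 46LCNEC_cell. The part of this overlap in the difference was not tested. Itga9, a tenascin receptor subunit, was at 74.1 to 105 against 134, 122 and 270 (0.86 ± 0.31, adjusted p = 0.0348, limma), not past the threshold and highest in flask C.

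All tested laminin chains were lower in 57SCLC_cell. Lamb1 (chr12:31315030-31379658, plus strand) had 11664, 10164 and 10819 in 46LCNEC_cell and 37.6, 35.0 and 47.4 in 57SCLC_cell, a 272-fold difference (-8.06 ± 0.13). Lamb2 (chr9:108356935-108367729, plus strand), the other widely used beta chain, was at 4162, 4199 and 4235 against 20.7, 19.9 and 24 (-7.55 ± 0.11). Both common beta chains were thus low in the flasks while their usual gamma partner was not lost. Lamc1 (chr1:153094597-153208774, minus strand) was at 24084, 21616 and 22288 in the dishes and still at 1710, 1733 and 1549 in the flasks (-3.77 ± 0.08).
Lama5 (chr2:179818166-179867712, minus strand), the alpha chain of most adult epithelial basement membranes, fell from 6751, 5806 and 5712 to 1038, 993 and 1328 (-2.45 ± 0.12). This was the smallest estimate among the tested laminin chains, close to that of Lama3 given below. Lama2, which was not tested, averaged 10.8 in the dishes and 2.40 in the flasks. Lama4, known from vessels and muscle, was at 1023, 859 and 899 against 2.18, 6.63 and 10.4 (-7.15 ± 0.43), highest in flask C. Lama1, the alpha chain of early embryonic basement membranes, was at 220 to 232 against 0 to 0.603, so it was at least 125-fold higher in the dishes. Lama3 and Lamb3, chains of the laminin that anchors epithelium at hemidesmosomes, were at 56.3 to 74.6 against 7.09 to 15.1 (-2.50 ± 0.29) and at 796 to 851 against 44.2 to 74.0 (-3.89 ± 0.20). Leaving out flask C, or any other sample, left between 24 and 25 members lower and 4 higher.

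The other genes of the adhesion pathway differed in kind. Of 10 tested further integrin ligands, 10 fell in 57SCLC_cell and 0 rose, with a median log2 fold change of -7.59, or -7.17 with the 3 genes at the floor set at their bound, beside 0.0003 over all genes. Fn1, which codes for fibronectin, averaged 85620 in 46LCNEC_cell and 5.1 in 57SCLC_cell (-13.89 ± 0.33). Spp1, which codes for osteopontin, was at least 9770-fold higher in 46LCNEC_cell. Of 18 adaptors that link integrins to actin, 8 fell and 1 rose (median -0.91). Tns1 (-4.20 ± 0.15), Vcl (-2.34 ± 0.09) and Tln1 (-2.09 ± 0.10), which code for tensin, vinculin and talin, were among those that fell, and Fermt1, an epithelial kindlin singled out after its values were seen as the 1 that rose, was at least 26.6-fold higher in 57SCLC_cell. Basement membrane partners of laminin went the other way in part. Of 9 tested, 5 rose and 2 fell (median 1.19). Hspg2, the perlecan gene, fell (-8.37 ± 0.13), while Ntn4, a netrin that binds laminin (7.69 ± 0.13), Col4a2, a type IV collagen chain (3.38 ± 0.10), and Bcam, a receptor of Lama5 (2.61 ± 0.10), rose.

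The allografts of the 2 lines were compared next. Of 34 genes tested, 17 fell and 2 rose in 57SCLC_allo relative to 46LCNEC_allo, against 30.4% of all 17502 genes tested called in either direction and 14.2% called lower and 16.1% higher. The median was -1.97 for the members and 0.01 over all genes. The calls over all genes were split into 2821 higher and 2491 lower, and into 3576 and 1964 where samples were scaled to library size only. The 17 lower genes were 7 alpha subunits, 4 beta subunits and 6 laminin chains. Of the 36 genes, 16 were called lower in 57SCLC both in culture and in allografts, and 1 (Itgad) was called higher in both. Another 11 were called in culture only, 2 (Itga10 and Itgb6) in allografts only, 6 in neither and 0 with opposite signs. Genes that were not tested count as not called in this split. They were Itga8, Itgam, Itgax, Itgb6 and Lama2 in culture, and Itgam and Lamc3 in allografts. The same split over all genes was not counted. The plot of both line differences shows that most differences were smaller in allografts.

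**Figure D3:**
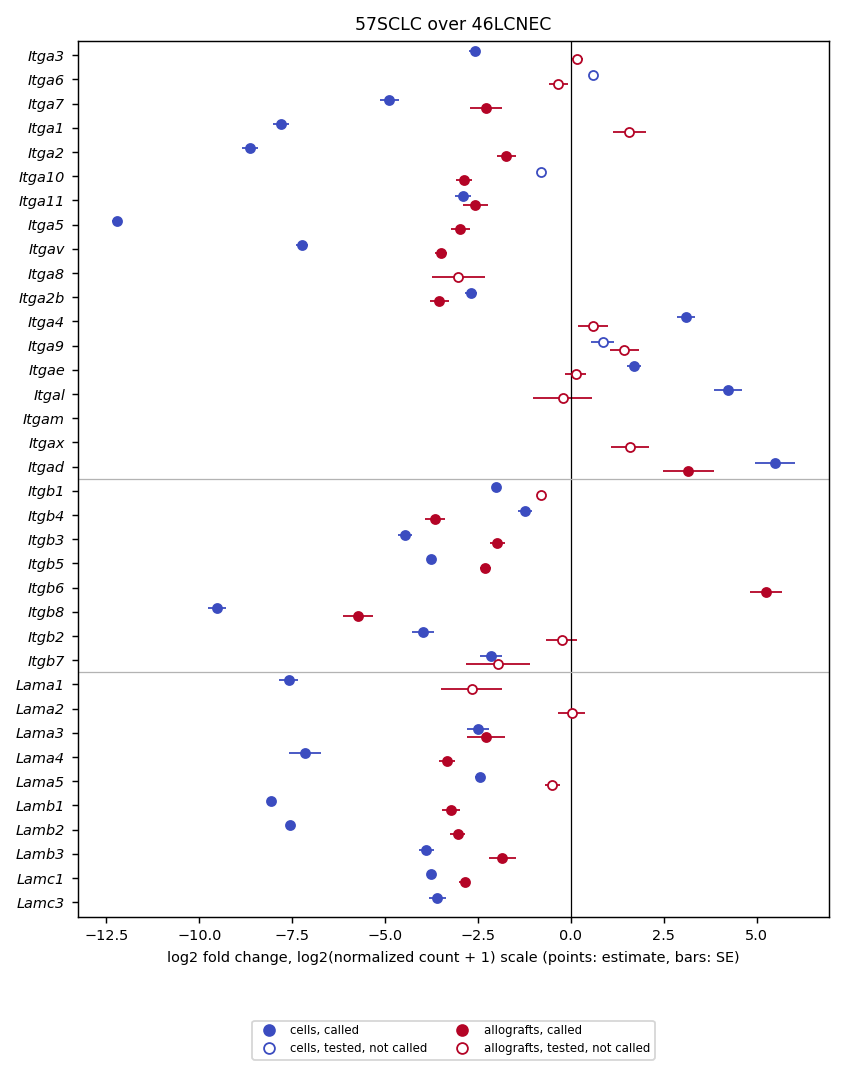
Log2 fold change of 57SCLC over 46LCNEC (x axis, points with SE bars) for each member (y axis) in cultured cells (blue) and in allografts (red), with filled points for called genes and open points for tested genes that were not called. Itga5 moves from -12.22 in cells to -2.97 in allografts, and Itgb6 stands at 5.25 in allografts.

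Itga5 was at 8648, 11154 and 6226 in tumors 312, 319 and 321 of 46LCNEC_allo and at 1223, 818 and 1238 in tumors 275, 316 and 317 of 57SCLC_allo (-2.97 ± 0.25, adjusted p = 0.000124, limma). Itgav was at 5020, 5457 and 4252 against 393, 392 and 521 (-3.50 ± 0.16). For both receptors every 46LCNEC tumor was above every 57SCLC tumor. Itgb5 was at 10064, 8229 and 9229 against 2123, 1547 and 1927 (-2.30 ± 0.15), and Itgb3 at 2507 to 4516 against 809 to 876 (-1.98 ± 0.21). Itgb8 was at 685, 1193 and 809 against 26.3, 9.91 and 13.6 (-5.74 ± 0.41), the largest fall among the members in allografts. Itgb6 went the other way. It was at 115, 146 and 132 in 57SCLC_allo and at 2.65, 1.05 and 4.43 in 46LCNEC_allo (5.25 ± 0.44).

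The laminin receptor subunits Itga3 and Itga6 were not called between the allografts. Itga3 was at 2456, 1883 and 2781 against 2561, 2613 and 2713 (0.17 ± 0.15), and Itga6 at 2653, 5036 and 2719 against 2248, 2799 and 2866 (-0.34 ± 0.26), with overlapping tumors for both genes. Itgb1 was at 17515 to 19417 against 10243 to 10504, and its groups did not overlap, but -0.81 ± 0.10 was under the fold threshold. Itgb4 was at 707, 844 and 1164 against 76.6, 53.8 and 80.6 (-3.66 ± 0.26). Galk1, on the other strand of its locus, averaged 2032 in 46LCNEC_allo and 298 in 57SCLC_allo.
Among collagen receptors, Itga10 (1056, 1155 and 898 against 180, 108 and 140, -2.88 ± 0.22) and Itga11 (3490, 3625 and 1576 against 512, 385 and 483, -2.57 ± 0.33) were lower in 57SCLC_allo. Itga1 was at 371, 165 and 501 against 1195, 661 and 1041, with no overlap, but at 1.58 ± 0.43 it missed the threshold (adjusted p = 0.0193, limma). It passed with DESeq2 on the recovered reads and without tumor 321. Itga9, at 777, 450 and 752 against 1072, 2915 and 1668 (1.43 ± 0.39, adjusted p = 0.0183, limma), passed with DESeq2 and with scaling to library size.

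Of the laminin chains, Lamb1 was at 7318, 12869 and 9616 in 46LCNEC_allo and 1072, 815 and 1252 in 57SCLC_allo (-3.23 ± 0.24). Lamb2 was at 3661, 4656 and 4224 against 519, 379 and 648 (-3.04 ± 0.21), Lamc1 at 17041, 24221 and 18764 against 2528, 2694 and 2989 (-2.86 ± 0.15), and Lama4 at 5501, 7146 and 6350 against 680, 449 and 799 (-3.33 ± 0.22). These 4 chains had no overlap between the tumors of the 2 lines. Here and elsewhere, the share of all genes without overlap between groups was not counted. Lama5 was at 2241, 3235 and 1795 against 1623, 1687 and 1690 and was not called (-0.50 ± 0.21, adjusted p = 0.0812, limma). Itga7, Lama3, Lamb3 and Itgad had the weakest calls, and each lost its call when tumor 312, 275, 316 or 317 was left out, Itgad also without tumor 319 and Lama3 also without tumor 321. The members called higher numbered 4 without tumor 321, and 1 without any other single tumor. Of companion genes, 5 of 12 further ligands, 8 of 18 adaptors and 2 of 9 basement membrane partners fell, and 0, 2 and 2 rose, with medians of -1.44, -0.84 and -0.64. Markers of other cells differed as well: the 7 fibroblast and mural markers summed to between 41558 and 53340 in 46LCNEC_allo and between 6953 and 10748 in 57SCLC_allo, and all 7 were above the floor in every tumor. Of these markers 4 were lower in 57SCLC_allo and 1 higher, the smooth muscle gene Myh11, with a mean of 459 against 34.4 in 46LCNEC_allo (3.95 ± 0.61). Keratinocyte markers differed between the allografts too. Of 4 examined, the 3 tested were lower in 57SCLC_allo (median -6.44), with Krt14 at 0 in its tumors and Krt5 at the floor in both groups, and the sums were between 465 and 1914 in 46LCNEC_allo and between 76 and 116 in 57SCLC_allo. Their part in the differences was not tested.

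The next question was how tumors in mice differ from the same cells in culture. In 57SCLC most called members rose: of 32 members tested, 19 rose and 1 fell, against 16.6% of all 17078 genes tested called in either direction with 14.4% called higher and 2.29% lower. The median was 2.65 against 0.004 over all genes. In 46LCNEC, 11 of 33 members rose and 5 fell, against 22.8% of all 16375 genes tested called in either direction with 14.4% called higher and 8.45% lower, and the members had a median of 0.52 against -0.0007 over all genes. The plot of allografts over cells sets both lines side by side.

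**Figure D4:**
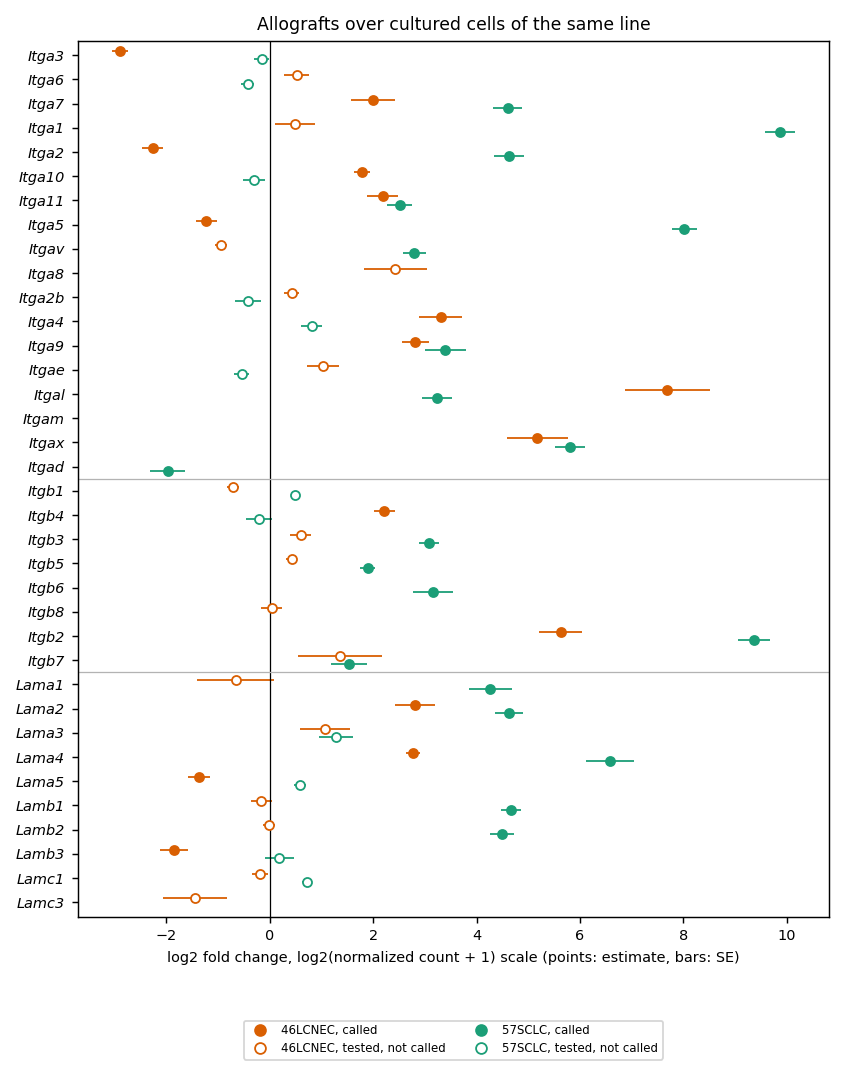
Log2 fold change of allografts over cultured cells (x axis, points with SE bars) for each member (y axis) in 46LCNEC (orange) and 57SCLC (green), with filled points for called genes and open points for tested genes that were not called. Itga5 stands at 8.02 in 57SCLC and -1.23 in 46LCNEC, and Itga3 stands at -0.16 and -2.90.

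In 57SCLC, several members at or near the floor in the flasks were well above it in every tumor. Itga5 went from between 2.61 and 3.62 in the flasks to between 818 and 1238 in the tumors (8.02 ± 0.24, adjusted p = 3.12e-07, limma). Lamb1 went from between 35.0 and 47.4 to between 815 and 1252 (4.66 ± 0.20), and Lamb2 from between 19.9 and 24 to between 379 and 648 (4.49 ± 0.23). Lama4 went from between 2.18 and 10.4 to between 449 and 799 (6.58 ± 0.46). In each case no tumor overlapped a flask. Itga1, at 0 in the flasks and 661 to 1195 in the tumors, was at least 534-fold higher. Lama1 was at least 12.3-fold higher and Itgb2 at least 428-fold higher. Itga8 and Lamc3 stayed at or near the floor, with at most 7.94 in any tumor of 57SCLC_allo. Receptor genes with more counts in the flasks rose as well. Itgb5 went from between 445 and 570 to between 1547 and 2123 (1.89 ± 0.14), Itgb3 from between 72.4 and 117 to between 809 and 876 (3.08 ± 0.19), and Itgav from between 48.2 and 79.7 to between 392 and 521 (2.79 ± 0.22). Itga9 (3.39 ± 0.40) and Itga11 (2.52 ± 0.24) rose too. By contrast, Itga3 (-0.16 ± 0.14), Itgb1 (0.49 ± 0.08), Lama5 (0.59 ± 0.12), Lamc1 (0.72 ± 0.09) and Itga4 (0.81 ± 0.21) were not called. Itgad was the single gene that fell, from 193 to 241 in the flasks to 33.5, 90.6 and 47.7 in the tumors (-1.98 ± 0.34), a call lost without tumor 317.

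Genes of other cell types came up in the same tumors. The 7 fibroblast and mural markers summed to between 48.9 and 80.2 in 57SCLC_cell, with Dcn, Lum, Acta2 and Rgs5 at the floor, and to between 6953 and 10748 in 57SCLC_allo. The 5 endothelial markers went from between 63.3 and 88.6, with Cdh5, Kdr and Emcn at the floor, to between 2534 and 3569. The 8 leukocyte markers went from between 264 and 286 to between 10386 and 17134. Their part in the rise of the integrin and laminin genes was not tested. Of 12 further ligands, 11 rose and 1 fell (median 5.26), with Fn1 at a mean of 12838 in the tumors. Of 9 basement membrane partners 5 rose (median 1.57), and of 18 adaptors 5 rose (median 0.27), with 0 falls in either list.

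In 46LCNEC, members of the same role moved in different directions. Of 10 laminin chains 2 rose and 2 fell, and of the collagen receptor subunits Itga10 and Itga11 rose and Itga2 fell. Itga3 fell from 18032, 16591 and 18055 in the dishes to 2456, 1883 and 2781 in the tumors (-2.90 ± 0.15, adjusted p = 1.59e-05, limma), which is 7.40-fold. Itga2 fell from 923, 1214 and 1275 to 181, 276 and 254 (-2.27 ± 0.21), Lamb3 from between 796 and 851 to between 157 and 349 (-1.86 ± 0.28) and Lama5 from between 5712 and 6751 to between 1795 and 3235 (-1.37 ± 0.21). Itga5 fell from between 18213 and 20915 to between 6226 and 11154 (-1.23 ± 0.21). The calls of Itga5 and of Lama5 were lost without dish A, that of Itga5 also without dish B or dish C, and the members called lower numbered 3 without dish A.
Itga11 rose from between 581 and 610 to between 1576 and 3625 (2.18 ± 0.30) and Itga10 from between 277 and 336 to between 898 and 1155 (1.78 ± 0.15). Lama4 rose from between 859 and 1023 to 5501, 7146 and 6350 (2.77 ± 0.13), Itgb4 from between 171 and 205 to 707, 844 and 1164 (2.22 ± 0.20), Itga9 from between 74.1 and 105 to between 450 and 777 (2.82 ± 0.26) and Lama2, the laminin chain of muscle and nerve, from between 9.23 and 12.2 to between 51.6 and 126 (2.81 ± 0.38). For all of these every tumor lay above every dish. Lamc1 (-0.19 ± 0.16), Itgb1 (-0.71 ± 0.12) and Itgav (-0.94 ± 0.12) were not called. Lama1 was at 220 to 232 in the dishes and at 538, 88.4 and 59.7 in tumors 312, 319 and 321, so 1 tumor stood above and 2 below all dishes (-0.66 ± 0.74). Without tumor 312 it was called lower (-1.62, limma).
The fibroblast and mural markers were present in the dishes themselves, with 6 of 7 above the floor, Lum at the floor and a sum between 7782 and 8536, and their sum was between 41558 and 53340 in the tumors. The endothelial sum went from between 371 and 454 to between 5070 and 8793. Their part in the changes was not tested. Of companion genes, 5 of 9 basement membrane partners, 4 of 12 further ligands and 3 of 17 adaptors rose, and 0, 2 and 1 fell, with medians of 2.08, 0.50 and 0.01.

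The leukocyte integrins Itgal, Itgax, Itgb2 and Itgb7 were highest in Lung and differed most among the tumors of 46LCNEC_allo. Itgb2, the shared beta subunit of myeloid and lymphoid adhesion, was at 747, 572 and 1707 in tumors 312, 319 and 321, at 811, 568 and 944 in 57SCLC_allo and at 3349, 2628 and 2815 in Lung. Itgal was at 224, 153 and 1360 in 46LCNEC_allo, at 464, 218 and 292 in 57SCLC_allo and at 2466, 2238 and 2375 in Lung. Tumor 321 was the highest of its group for both. Itgb7, which guides lymphocytes to the gut, was at 391, 96.8 and 1280 in 46LCNEC_allo, at 122, 72.2 and 90.8 in 57SCLC_allo and at 1564, 1468 and 1292 in Lung. Itgax, known from dendritic cells and alveolar macrophages, was at 125, 74.7 and 305, at 510, 314 and 505 and at 1337, 1034 and 1289 in the same order.
Between allografts and cells, Itgb2, Itgal and Itgax rose in both lines. Their log2 fold changes in 46LCNEC were 5.63 ± 0.42 for Itgb2 and 5.17 ± 0.58 for Itgax, and Itgal, under the floor in the dishes, was at least 175-fold higher. In 57SCLC they were 3.24 ± 0.29 for Itgal and 5.80 ± 0.29 for Itgax. Itgb7 was called in 57SCLC (1.53 ± 0.34, adjusted p = 0.0083, limma), a call lost with edgeR, without the filter on low values and without any 1 of the samples other than flask C, and not in 46LCNEC (1.35 ± 0.81). The 8 leukocyte markers summed to 34406 in the median tumor of 46LCNEC_allo and to at most 54082, to between 10386 and 17134 in 57SCLC_allo and to between 95137 and 124117 in Lung. Ptprc, the pan-leukocyte gene, was at 1359, 899 and 2730 in tumors 312, 319 and 321. Their part in these changes was not tested.

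**Figure D5:**
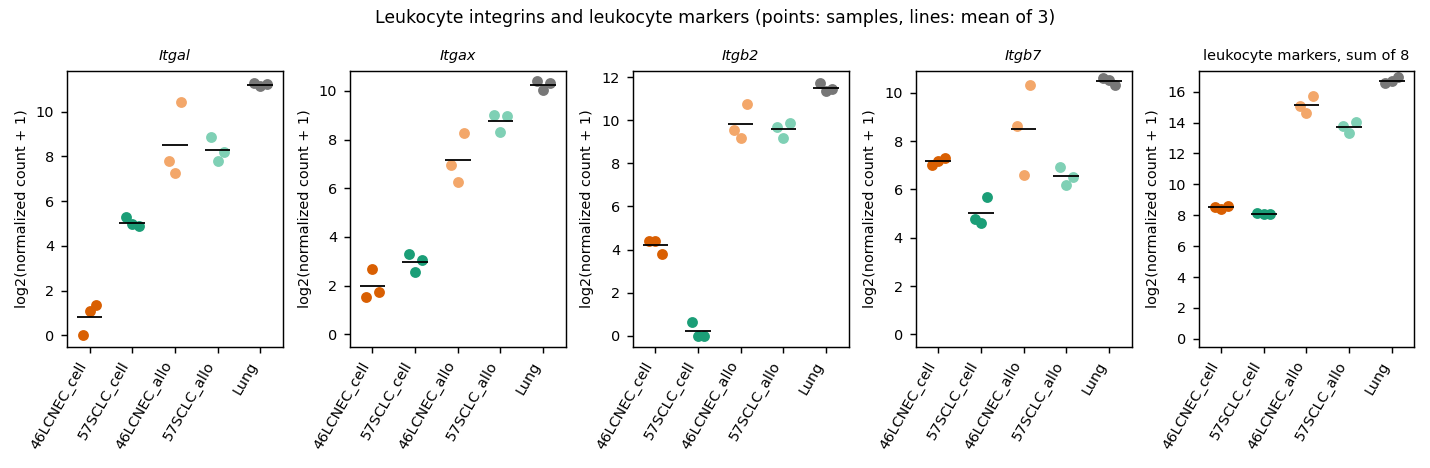
Log2(normalized count + 1) of Itgal, Itgax, Itgb2, Itgb7 and the sum of 8 leukocyte markers (panels) in each sample (points) of 5 groups, with a line at the mean of the 3 log2 values. Lung is highest in every panel, and tumor 321 of 46LCNEC_allo, at 1360 for Itgal and 1280 for Itgb7, is far above the other tumors of its group.

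Against normal lung, most members were lower in 57SCLC_cell and 57SCLC_allo. In both 46LCNEC groups the lower members also outnumbered the higher ones, but by less. Over all genes, too, those called lower outnumbered those called higher in each of the 4 comparisons with Lung. The share of members called higher in 46LCNEC_cell was close to that of all genes. The 4 comparisons with Lung share its 3 samples, so each is given on its own. In 57SCLC_cell, 31 of 35 members tested were lower and 1 (Itgad) higher, against 53.8% of all 18467 genes called in either direction, 21.1% higher and 32.7% lower (median -5.42 against -0.12 over all genes). In 57SCLC_allo, 24 of 35 were lower and 1 (Itgad) higher, against 45.8% of all 18517 genes, 18.9% higher and 26.9% lower (median -1.94 against -0.09). In 46LCNEC_cell, 17 of 34 were lower and 8 higher, against 55.6% of all 18142 genes, 20.6% higher and 35% lower (median -0.87 against -0.23). In 46LCNEC_allo, 12 of 34 were lower and 9 higher, against 35.6% of all 18033 genes, 13.4% higher and 22.1% lower (median -0.23 against -0.14).

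The next 6 members, picked after their values were seen, stood highest in Lung. Itga8, an alpha subunit of lung mesenchyme that binds nephronectin, was at 9168, 8583 and 9851 in Lung and at most 129 in any other sample. Itga1 was at 8982 to 9408 in Lung and at most 1195 elsewhere. Lama3 was at 1736, 1727 and 1848 in Lung, at 63.2 to 247 in 46LCNEC_allo and at 25.0 to 31.1 in 57SCLC_allo (-3.65 ± 0.47 and -5.93 ± 0.14). Its partner chain Lamb3 was at 2366, 2281 and 2781 in Lung (-3.45 ± 0.29 and -5.30 ± 0.19 for the allografts). Itgb6, the epithelial TGF-beta activator, was at 732, 820 and 1203 in Lung and at most 146 elsewhere. Lamc3 was at 627, 338 and 481 in Lung and at most 56.1 elsewhere. For these 6 genes the lowest Lung sample lay above every tumor and culture, which follows from how they were picked. The same was true of Itga2, Itga4, Lama2, Itgal, Itgax, Itgb2 and Itgb7.

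Other members were above lung in 46LCNEC. Itga5 was at 1601, 1419 and 1685 in Lung, 12.6-fold below 46LCNEC_cell (3.66 ± 0.09) and 5.53-fold below 46LCNEC_allo (2.43 ± 0.21). Itgav was 5.48-fold higher in 46LCNEC_cell (2.46 ± 0.07) and 2.88-fold higher in 46LCNEC_allo (1.52 ± 0.12), with 1591 to 1811 in Lung. Lamb1 (1520 to 2063 in Lung) was 6.21-fold and 5.67-fold higher, Lamc1 (4933 to 5376) 4.41-fold and 3.89-fold, and Itgb8 (77.0 to 104) 9.15-fold and 9.60-fold. Itga10 (97.9 to 124 in Lung) was 2.79-fold higher in the cells and 9.65-fold higher in the allografts (3.26 ± 0.17). All of these passed the test in both comparisons. Of the exonic bases of Itga10, 33.5% lie in exons of Gm42957 on the same strand, which averaged at most 0.4 in any group. Lama4 was lower than Lung in 46LCNEC_cell (-1.20 ± 0.09) and higher in 46LCNEC_allo (1.56 ± 0.12). Itgb1 (-0.25 ± 0.12) and Lama1 (3.16 ± 0.81, adjusted p = 0.0138, limma) were not called between 46LCNEC_allo and Lung.
In 57SCLC_allo, Itga5 (-0.54 ± 0.17) and Lamb1 (-0.75 ± 0.17) were not called against Lung, whereas Lamb2, at 4535 to 5393 in Lung, was lower (-3.25 ± 0.18). Itgad, at 9.36 to 18 in Lung, was higher in 57SCLC_cell (3.87 ± 0.27) and in 57SCLC_allo (1.90 ± 0.43), the second call being lost without tumor 316, tumor 317, CT3 or CT5. Itga6 did not differ beyond the threshold from Lung in any group, with 2244 to 5036 over all 15 samples. Against Lung, 0 of 18 adaptors rose in any group, and 13 fell in 57SCLC_cell, 12 in 57SCLC_allo, 9 in 46LCNEC_cell and 5 in 46LCNEC_allo. Of 12 further ligands, 12 fell in 57SCLC_cell. In 57SCLC_allo 3 rose and 6 fell, in 46LCNEC_cell 5 rose and 4 fell, and in 46LCNEC_allo 6 rose and 4 fell. Of all genes tested, 32.7%, 26.9%, 35% and 22.1% were called lower in these groups in the same order. Those called higher were 21.1%, 18.9%, 20.6% and 13.4%.

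Whether the difference between the lines itself differed between allografts and culture was tested by the interaction term over the 12 samples of the lines. Of 35 members tested, 19 had a positive and 5 a negative term, against 17.5% of all 18440 genes called in either direction with 10.8% positive and 6.78% negative. A positive term means that 57SCLC stood higher relative to 46LCNEC in allografts than in culture. The median was 1.81 for the members and 0.10 over all genes. The term was 9.25 ± 0.30 for Itga5, 4.83 ± 0.29 for Lamb1, 4.50 ± 0.24 for Lamb2, 3.82 ± 0.53 for Lama4, 3.73 ± 0.24 for Itgav and 2.75 ± 0.22 for Itga3. Itga5 had risen in 57SCLC and fallen in 46LCNEC, and Itga3 had fallen in 46LCNEC and was not called in 57SCLC. The 5 negative terms were those of Itgal, Itga4, Itgb4, Itga10 and Itgae. Lamc1 (0.91 ± 0.17), Itga9 (0.58 ± 0.54) and Itga11 (0.33 ± 0.42) were not called. For Itga1, Itgb2, Itgb8 and Lama1, which were at the floor in all flasks, the size of the term depends on the pseudocount. The same holds for Itgal, at the floor in all dishes. It also holds for members near the floor, such as Itga5, Itga2, Itga7 and Lama2 in the flasks and Itgb6 in 46LCNEC_allo.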

How the data were processed

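Normalized counts of 55359 genes in 15 samples were read from the matrix the authors deposited, a signal that they made by alignment to GRCm39 with Rbowtie2, counting with featureCounts over GENCODE M27 and division by DESeq2 size factors. Their versions and the strand setting are not given in the sources used here. Whole reads were recovered in 100% of values, within 0.01 read, and gave the depth and the floor of 3 reads. Exon lengths, coordinates and overlaps came from GENCODE M39 on GRCm39, which holds 98.9% of the gene IDs. Genes with at least 10 normalized counts in 3 samples of a comparison were tested on log2(value + 1) by limma 3.58.1 with a trend (R 4.3.3), over the 6 samples compared or, for the interaction, over the 12 samples of the lines. The alternatives were no filter, a pseudocount of 5, edgeR 4.0.16 and DESeq2 1.42.0 on the recovered reads, scaling to library size, an adjusted p of 0.05, each sample left out, and a replicate block. The fits were tried on counts simulated at a fixed dispersion, for the comparison of the cells and for the interaction only. The spread seen among the tumors was not simulated, so the trial does not cover it. The genes and lists were chosen with earlier results of these data known. All members may be named, and from a companion list at most the 4 genes with the smallest adjusted p in a comparison, with Fermt1 as an exception.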

Additional observations from a re-analysis of the deposited data

Results flagged for a closer look

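For 24 members the difference between 57SCLC and 46LCNEC was not the same in allografts as in culture, by limma's interaction term (log2 scale, allografts minus cells). Among matrix receptors the term was 9.25 for Itga5, 9.39 for Itga1, 6.89 for Itga2, 3.73 for Itgav, 2.75 for Itga3 and 2.61 for Itga7. Among beta subunits it was 4.43 for Itgb6, 3.79 for Itgb8, 3.73 for Itgb2, 2.49 for Itgb3, 1.47 for Itgb5 and 1.2 for Itgb1. Among laminin chains it was 4.92 for Lama1, 4.83 for Lamb1, 4.50 for Lamb2, 3.82 for Lama4, 2.04 for Lamb3, 1.95 for Lama5 and 1.81 for Lama2. It was negative at -4.45 for Itgal, -2.50 for Itga4, -2.43 for Itgb4, -2.09 for Itga10 and -1.57 for Itgae. The sizes for members at or near the floor in a group, among them Itga1, Itga2 and Itga5, depend on the pseudocount. Groups of 3 were not tested for single outlying samples.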

How the results depend on the processing

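Of the values of called members under the alternatives, 2601 kept their direction and their side of the threshold and 91 kept the direction only, 75 of these with 1 sample left out of the fit. Among the 2601 are 210 values at an adjusted p of 0.05, a looser cut on the same fit that cannot lose a call. The members higher in 57SCLC_allo than in 46LCNEC_allo numbered 2, against 4 with DESeq2, 5 at an adjusted p of 0.05 and 1 to 4 with a sample left out. Those higher in 57SCLC_allo than in Lung numbered 1, against 2 with DESeq2 and 2 with scaling to library size, and 0 to 2 with a sample left out. With a sample left out, the members lower in 46LCNEC_allo than in 46LCNEC_cell numbered 3 to 7, those lower in 57SCLC_allo than in 57SCLC_cell 0 to 1, and negative interaction terms 3 to 5, with 3 without flask A of 57SCLC_cell or tumor 316. Lama1 between 46LCNEC_allo and its cells, not called at -0.66, turned to 0.0258 with edgeR and 0.0237 with DESeq2. Itga11's interaction term, not called at 0.33, was between -0.0588 and 0.59 with a sample left out, and negative without tumor 321. The cause was not tested. Against Lung, Itga11, Itga4 and Itgb2 in 46LCNEC_allo lost their calls without any single Lung sample, Itgax without CT3, Itgb1 in 57SCLC_allo with edgeR, and Itgae in 46LCNEC_cell with edgeR. The interaction calls of Lama2, Itgal and Itgae were lost with 11, 4 and 6 of the 12 samples left out in turn, and those of Itga7, Itgb2, Itgal, Lama1 and Lama2 with a pseudocount of 5. Scaling to library size moved the median of all genes to 0.24 between the cells and 0.28 between the allografts of the lines.

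The letters of dishes and flasks do not pair the samples (correlations of deviations 0.0916, -0.0837 and -0.00619 for A, B and C, and B of the dishes went most with flask C). With the letters as a replicate block, 4 members were higher and 24 lower in 57SCLC_cell, as without it, and 7797 of all genes were called in place of 7799. Genes near the floor of 3 reads are limited by depth.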
